A study of Mus musculus with 4 samples.

Results

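The naive pluripotency transcription factors examined here were Pou5f1 (Oct4), Sox2, Nanog, Esrrb, Tfcp2l1, Tbx3, Klf2, Klf4, Klf5 and Zfp42 (Rex1). They were taken by symbol from expression lists of 28250 genes, and all 10 were found. Tfcp2l1 is listed under the older symbol Tcfcp2l1 and was matched by its Entrez identifier. The cells were TBV2, a feeder-dependent mouse embryonic stem cell (ESC) line of strain 129/SvP, kept with feeder cells and LIF and grown on gelatin. Whether the libraries came from its wild type or its EGFP-transgenic form, and whether feeder cells were present at harvest, is not stated. RNA-seq was run on poly(A) RNA after 24 h with solvent (replicates 1 and 2) or after 24 h with 5 µM MS-275 (replicates 1 and 2), a benzamide that inhibits class I histone deacetylases. The title of each second library calls it a duplicate and no source says whether it was a separate culture, so p-values measure the spread between these libraries, which may be technical. Each gene has a normalized expression value per library, made by the authors with Genomatix on the mm9 genome, and each library also has its aligned reads of 35 bases.

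Mouse ESC hold their undifferentiated state through a small set of transcription factors that bind each other's regulatory regions. Pou5f1, Sox2 and Nanog form the core of this network. Esrrb, Tfcp2l1, Tbx3 and the Krüppel-like factors Klf2, Klf4 and Klf5 connect the core to LIF and Wnt signalling, overlap in function, and are largely switched off when naive cells move towards the epiblast state. Zfp42 is a widely used marker of the naive state whose loss alone does not end self-renewal.

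After 24 h with MS-275, the values of 8 of the 10 factors were lower in both replicate pairs and those of Klf2 and Klf5 were lower in pair 2 alone. Over the 20336 genes tested, 26.5% were lower in both pairs and 50% were higher in both, as 0 of the factors were. The ancillary factors Tbx3, Esrrb and Tfcp2l1 had the most negative log2 fold changes, followed by Pou5f1, while Sox2, Klf2 and Nanog were closest to 0. All 10 log2 fold changes were negative, with a median of -0.47 against 0.20 over all genes tested. Leaving out MS-275 replicate 1 or solvent replicate 2 made those of Nanog, Sox2, Klf2 and Zfp42 positive (up to 0.77, 0.61, 0.86 and 0.50), and leaving out MS-275 replicate 2 that of Klf5 (0.11). Such fits leave the replicates, which were on different scales, unbalanced between the groups. Scaling by median ratios moved the median of all genes to -0.01 and that of the factors to -0.75, and quantile normalization moved them to -0.03 and -0.38, with all 10 factors negative under both.

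**Figure D1:**
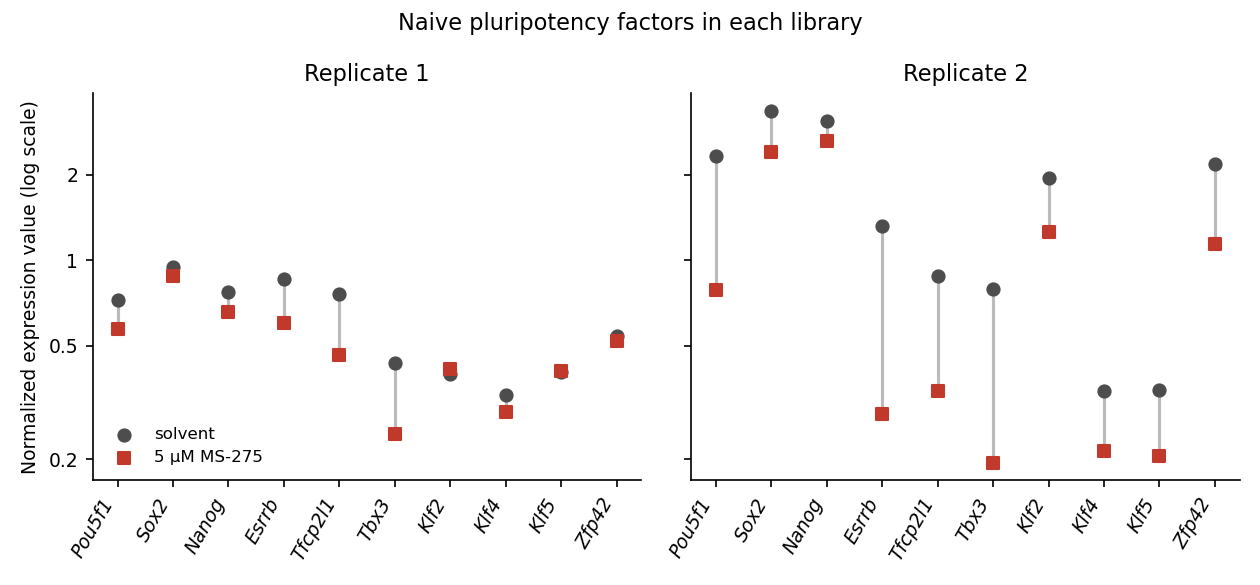
Normalized expression value (log axis) of the 10 factors in the solvent library (circles) and the 5 µM MS-275 library (squares) of replicate 1 (left) and replicate 2 (right), with a line joining the libraries of a pair. In replicate 2 all 10 squares lie below their circles, and in replicate 1 the squares of Klf2 and Klf5 lie at or above theirs.

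The test compared the group means of log2(value + 0.005) with limma over the 20336 genes listed at 0.001 or higher in 2 or more libraries, and all 10 factors passed that filter. Without a replicate block, 0 of the 10 factors had a Benjamini-Hochberg adjusted p under 0.05 as lower, against 0.0% of all genes, and 0 as higher, against 0.00492% of them. The standard errors of the 10 log2 fold changes lay between 0.40 and 1.22 in this fit, and between 0.23 and 0.38 with the block. Before adjustment, only Tbx3 among the 10 was under 0.05 as lower, among 2.77% of all genes, and none was as higher, among 14.6%. With the replicate number as a block, 4 of the 10 passed as lower, Tbx3, Esrrb, Tfcp2l1 and Pou5f1, against 6.46% of all genes, and 0 passed as higher, against 21.0% of all genes. Without the filter on low values the same fit called 0 of the 10 (the lowest adjusted p, of Tfcp2l1, was 0.291 from limma). The replicates were on different scales. The highest value of any gene was 1.63 (solvent) and 1.43 (MS-275) for replicate 1, against 34.1 and 47.1 for replicate 2. The 10 factors summed to 6.18 and 5.06 in replicate 1 and to 16.6 and 9.46 in replicate 2. For a single gene, an exact permutation test of 2 against 2 libraries cannot give a two-sided p below 0.333.

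In bulk RNA, fewer cells that express a factor and less RNA of that factor per cell cannot be told apart. TBV2 cells are kept on feeders, commonly fibroblasts. The summed value of 10 fibroblast genes was 0.466 and 0.455 with solvent (replicates 1 and 2) and 0.757 and 0.771 with MS-275, and 0 of the 10 were at 0 in all libraries. Of the 10, 6 were higher and 2 lower in both pairs. Col1a1, a collagen chain of fibroblasts, was at 0.0146 and 0.0101 with solvent and at 0.0681 and 0.110 with MS-275, while Dcn, the matrix proteoglycan decorin, was at 0.00503 and 0.0239 and at 0.00158 and 0.0113. The highest value of any of these genes was 0.227, in MS-275 replicate 1. Their part in the lower values of the factors was not tested.

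In solvent replicate 2 the 3 core factors had the highest values of the 10. In solvent replicate 1 Esrrb stood between Sox2 and Nanog, and Tfcp2l1 stood between Nanog and Pou5f1. Against the alignments deposited with the same library, the values followed alignments per exon base more closely than alignments per gene in 3 of the 4 libraries. Against those deposited with the other replicate of the group they did so in all 4. Levels of different genes are compared here as such per-length values. Sox2, the HMG-box partner of Pou5f1 (chr3:34548927-34551383 of mm9, a single exon), had the highest value of the 10 in both solvent libraries and ranked 25th and 89th among all listed genes. Nanog, the homeodomain factor (chr6:122657507-122664651), ranked 102nd and 99th with solvent, and Pou5f1, the POU factor without which pluripotency is lost (chr17:35642982-35647721), ranked 145th and 175th.

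Pou5f1 was at 0.727 and 2.33 with solvent (replicates 1 and 2) and at 0.575 and 0.786 with MS-275. Each MS-275 library was below the solvent library of its pair, but the groups overlapped, since MS-275 replicate 2 was above solvent replicate 1. The value was 79.1% of solvent in pair 1 and 33.7% in pair 2, and the log2 fold change was -0.95 (-1.79 with solvent replicate 1 left out and -0.11 with solvent replicate 2 left out). Limma gave an adjusted p of 0.661 with no block and of 0.0473 with it. Pou5f1 lost that call when the pseudocount was 0.02 (adjusted p = 0.0705 from limma, blocked) or 0.001, and among blocked and filtered fits its adjusted p lay between 0.00136 and 0.0705.

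Sox2 was at 0.95 and 3.35 with solvent and at 0.879 and 2.40 with MS-275. Both pairs were lower with MS-275, by far less than the replicates differed from each other, and the groups overlapped. Its log2 fold change of -0.30 did not pass (limma's adjusted p was 0.600 in the blocked fit), and the 95% interval with the block ran from -1.10 to 0.50.

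Nanog was at 0.772 and 3.08 with solvent and at 0.659 and 2.64 with MS-275. It was the factor whose pairs were most alike, at 85.4% and 85.6% of solvent, and the groups overlapped. The log2 fold change of -0.23 did not pass (limma's adjusted p was 0.679 in the blocked fit), with a 95% interval from -0.98 to 0.53.

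The ratio of 1 factor to another within a library is free only of a constant that multiplies all values of that library. The replicates differed by more than such a constant, since Esrrb to Nanog was 1.11 in solvent replicate 1 and 0.428 in solvent replicate 2. Ratios are therefore compared within pairs, and their size may still depend on how each replicate was scaled. Pou5f1 stood to Nanog as 0.942 and 0.758 with solvent and as 0.873 and 0.298 with MS-275, so the ratio was lower in both pairs, by far more in pair 2. The Sox2 to Nanog ratio was 1.23 and 1.09 with solvent and 1.33 and 0.909 with MS-275, higher in pair 1 and lower in pair 2. Esrrb to Nanog went from 1.11 and 0.428 to 0.916 and 0.110, lower in both pairs.

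Esrrb, Tfcp2l1 and Tbx3 were the factors with the largest differences. Esrrb is an orphan nuclear receptor that can take over part of the role of Nanog in self-renewal (chr12:87702067-87862578). Its value was 0.858 and 1.32 with solvent and 0.603 and 0.289 with MS-275. Both MS-275 libraries were below both solvent libraries, as for 12% of all genes tested, and in no factor were they above both, as for 32.3%. This was 70.3% of solvent in pair 1 and 21.9% in pair 2, a log2 fold change of -1.34 (standard error 0.34 in the blocked fit, where limma's adjusted p was 0.00844, against 0.322 with no block).

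Tfcp2l1, a grainyhead-family factor downstream of LIF and STAT3 (chr1:120524522-120581744), was at 0.763 and 0.881 with solvent and at 0.466 and 0.346 with MS-275. The solvent replicates lay close together and both MS-275 libraries were below them. The log2 fold change was -1.02 (standard error 0.27 in the blocked fit, where limma's adjusted p was 0.0105, against 0.383 with no block), and the pairs stood at 61.1% and 39.3% of solvent.

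Tbx3, a T-box factor that links PI3K and LIF signals to Nanog (chr5:120120678-120134733), was at 0.435 and 0.790 with solvent and at 0.245 and 0.194 with MS-275. Again both MS-275 libraries were below both solvent libraries. It had the most negative log2 fold change of the 10, -1.41 (standard error 0.27 in the blocked fit, where limma's adjusted p was 0.00137, against 0.155 with no block), at 56.3% and 24.6% of solvent in pairs 1 and 2. With each library left out in turn its log2 fold change ran from -1.83 to -0.98, that of Tfcp2l1 from -1.23 to -0.81 and that of Esrrb from -1.86 to -0.81.

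The Krüppel-like factors gave no call in the blocked fit of the values. Klf4, one of the reprogramming factors (chr4:55540013-55545347, minus strand), was at 0.336 and 0.348 with solvent and at 0.293 and 0.214 with MS-275. Its solvent replicates were nearly equal and both MS-275 libraries were below them, so 4 factors in all had groups that did not overlap. The log2 fold change of -0.44 did not pass (limma's adjusted p was 0.171 in the blocked fit). After median-ratio scaling with the block Klf4 (adjusted p = 0.0190) and Klf5 (adjusted p = 0.0412) passed limma's test as well, which made 6 of the 10 factors lower against 14.1% of all genes, and 0 higher against 16.6%. Quantile normalization with the block gave the 4 factors named above as lower, against 14.6% of all genes, and 0 as higher, against 14.4%.

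Klf5 (chr14:99697910-99712624), which acts in parallel with Klf2 and Klf4, was at 0.404 and 0.349 with solvent and at 0.407 and 0.205 with MS-275. MS-275 replicate 1 was the highest of the 4 libraries and MS-275 replicate 2 the lowest, so the pairs disagreed. Klf2, the member most dependent on the absence of ERK signalling (chr8:74842932-74845555), was at 0.397 and 1.94 with solvent and at 0.415 and 1.25 with MS-275. It was slightly higher in pair 1 and at 64.5% of solvent in pair 2. The log2 fold changes were -0.37 for Klf5 and -0.28 for Klf2, and neither passed limma's test (adjusted p with the block 0.285 and 0.516).

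Zfp42 (chr8:44380422-44392363, minus strand), a zinc finger protein of the YY1 family, was at 0.543 and 2.18 with solvent and at 0.520 and 1.14 with MS-275. Pair 1 was at 95.8% of solvent and pair 2 at 52.4%, and the groups overlapped. Its log2 fold change of -0.49 did not pass (limma's adjusted p was 0.268 in the blocked fit).

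In pair 2 the log2 ratio was more negative than in pair 1 for 9 of the 10 factors, all but Nanog, and the median was -0.21 in pair 1 and -0.84 in pair 2. Over all genes tested the log2 ratio was lower in pair 2 than in pair 1 for 9546 of 20336, and the medians were 0.13 and 0.24. None of the 10 was at least 2-fold lower in both pairs, as 2.83% of all genes were, and none was at least 2-fold higher, as 16% were. Among the 2865 genes with a mean value at or above that of the lowest of the 10 factors, 39.2% were lower in both pairs. For 1036 of these 2865 genes the log2 ratio was lower in pair 2 than in pair 1.

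The aligned reads give a second readout of the same libraries, and the depth behind each value. The alignments deposited with replicate 1 numbered 23467935 for solvent and 20008841 for MS-275, of which 53.2% and 54.4% repeated a position and strand already seen. Those deposited with replicate 2 numbered 9785619 and 10915650, and none repeated a position. They are called here the alignments with repeated and with single positions. The values did not follow the alignments deposited with the same library most closely. Across 9580 genes (genes are no independent replicates) the log2 values of solvent replicate 1 correlated at r = 0.883 with the alignments per exon base deposited with solvent replicate 2 and at 0.836 with those deposited with solvent replicate 1. The other 3 libraries gave the same order. The mitochondrial genes ND5, ND6 and COX1 had values of 0.833 to 1.63 in replicate 1, whose deposited alignments hold no mitochondrial position, and were at 0 in replicate 2, whose alignments hold some. Both conditions are affected alike, so each pair of alignment files still compares MS-275 with solvent.

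**Figure D2:**
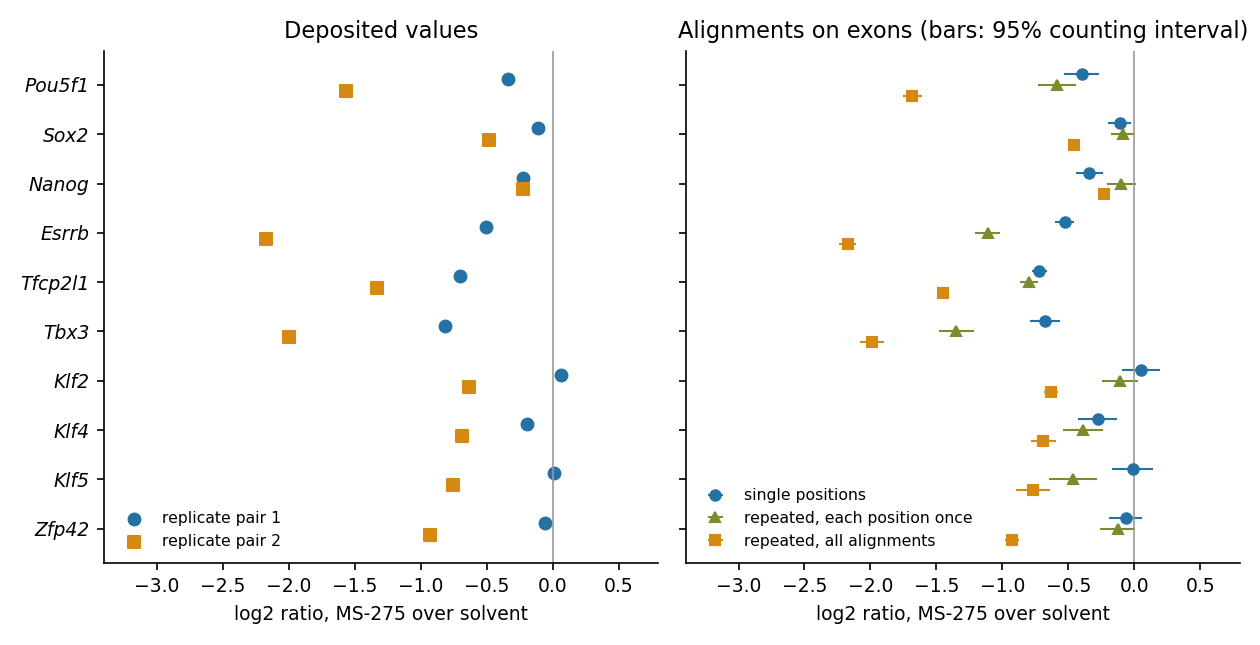
Log2 ratio of MS-275 over solvent for each factor. Left, deposited values in replicate pair 1 (circles) and pair 2 (squares). Right, alignments on exons per library total, from the files with single positions (circles) and with repeated positions counted once (triangles) or in full (squares), with 95% counting intervals. The circles on the right lie near those on the left and the squares near the squares, for Pou5f1 at -0.40 against -0.34 and at -1.68 against -1.56.

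For most of the 10 factors the size of the difference depended on how repeated alignments were counted. Pou5f1 had 7748 alignments on its exons with solvent and 2060 with MS-275 in the files with repeated positions, a log2 ratio of -1.68 per library total (95% counting interval -1.75 to -1.61). These lay on 1145 and 635 distinct positions, a ratio of -0.58 (-0.73 to -0.44). In the files with single positions the counts were 1017 and 862, a ratio of -0.40 (-0.53 to -0.26). Each position of Pou5f1 was thus read 6.77 times on average with solvent and 3.24 times with MS-275. Reads without molecular identifiers are not independent molecules, so these intervals cover counting error only.

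The number of alignments per position was lower with MS-275 for all 10 factors in the files with repeated positions. Esrrb went from 4.04 to 1.99 alignments per position and Zfp42 from 9.0 to 5.29, while Nanog went from 10.1 to 9.48. Over each whole file, the share of alignments that repeated a position was 53.2% with solvent and 54.4% with MS-275, so it was not lower. The same count over all genes was not made. All 10 factors also had fewer alignments per library total with MS-275 in these files. Alignments per position tend to fall with the number of alignments, so this is not a separate difference. Counted once, Esrrb still stood at 3152 positions with solvent and 1212 with MS-275 (log2 ratio -1.11), and at 3527 and 2730 in the files with single positions (-0.53). Tbx3 stood at 1873 and 611 positions (-1.35) and at 1597 and 1114 (-0.68). Both genes were lower in each count, by more in the files with repeated positions.

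Tfcp2l1 was lower by much the same in both counts of distinct positions, with 5308 and 2542 positions (log2 ratio -0.80) and 6161 and 4168 (-0.72). Klf5 had 655 and 395 positions (-0.46) in one pair of files and 657 and 727 (-0.01) in the other, whose 95% counting interval of -0.17 to 0.14 included 0. Sox2 had 2106 and 1651 positions (-0.08) and 2096 and 2169 (-0.11). For Sox2 the difference seen in pair 2 of the values was thus smaller in both counts of distinct positions.

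Over the 12473 genes with at least 100 positions in the files with repeated positions the quartiles of the log2 ratio of distinct positions were -0.33 and 0.47, and 6 of the 10 factors lay below the lower one. In the files with single positions the quartiles over 12497 genes were -0.25 and 0.45, and again 6 of the 10 lay below the lower one. Limma-voom on distinct positions called 4 of the 10 factors lower without a block (Tbx3 with an adjusted p of 0.00974, Tfcp2l1 with 0.0123, Pou5f1 with 0.0295 and Esrrb with 0.0361), against 7.68% of the 16994 genes tested, and 0 higher, against 12.4%. With the block it also called Klf4 (adjusted p = 0.00872) and Nanog (adjusted p = 0.0225), 6 of the 10 against 20.2% of all genes, and 0 higher, against 24.0%. The log2 fold changes of this test were closer to 0 than those of the values for Tbx3 (-1.13), Esrrb (-0.93) and Pou5f1 (-0.62), and farther from 0 for Nanog (-0.35).

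Several of the factors have exon stretches that recur exactly in the mouse genome, and whether these are processed copies was not examined. Of the 35-base windows on the exons, 43.3% of those of Zfp42, 31% of those of Nanog, 20.5% of those of Klf4 and 20.0% of those of Pou5f1 occur more than once in mm9, against 0.0% of those of Klf2 and Tbx3. In the files with repeated positions, windows that occur more than once held no alignment for any of the 10 factors. Windows that occur once gave Pou5f1 7435 alignments with solvent and 1962 with MS-275, and Nanog 15793 and 11521. The log2 ratios of -1.69 and -0.22 were close to those of all windows.

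Intronic alignments are mostly from RNA that has not been spliced, and 9 of the 10 factors have introns. In these, distinct positions within introns, per distinct position in the file, were lower with MS-275 than positions within exons for 9 of 9 factors in the files with repeated positions, against 55.6% of 4870 protein-coding genes, and for 8 of 9 in the files with single positions, against 56.1% of 4577 genes. They were below solvent for 9 of 9 and 8 of 9 factors, against 55.9% and 53.0% of the genes. The genes compared are those with at least 100 intronic and 100 exonic positions whose span overlaps no other gene. Of the 9 factors, Tbx3 and Tfcp2l1 do overlap another gene. In the files with single positions, Klf2 (46 and 46 intronic positions) and Klf4 (64 and 17) fell short of that minimum but are counted. Counting each position once draws the ratios of densely read exons towards 0, and with solvent between 12.9% (Klf4) and 42.9% (Sox2) of the exon positions of a factor were in use. Against exonic ratios with repeats counted in full in the files with repeated positions, the intronic ratio was lower for 8 of 9 factors, all but Esrrb (-1.41 against -2.17). This sets distinct positions against all alignments, and the share of all genes was not computed for it.

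Pou5f1 had 160 distinct positions in introns with solvent and 36 with MS-275 in the files with repeated positions, a log2 ratio of -1.89 (95% counting interval -2.45 to -1.36). In the files with single positions it had 92 and 29, a ratio of -1.82 (-2.48 to -1.21). The intervals overlapped widely between the files. The ratio lay at percentiles 1.83 and 0.961 among the genes.

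Nanog had 1206 and 421 intronic positions (log2 ratio -1.25, interval -1.42 to -1.09) in the files with repeated positions and 695 and 473 (-0.71, interval -0.88 to -0.54) in those with single positions. Both are more negative than its exonic ratios of -0.10 and -0.34. Nanog was thus lower within introns in both pairs of files, with intervals that did not reach its exonic ratios.

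Klf4 had 150 and 63 intronic positions (-0.98) and 64 and 17 (-2.07), and Klf5 had 317 and 134 (-0.98) and 245 and 158 (-0.79). Tfcp2l1 went from 1073 to 279 (-1.68) and from 866 to 461 (-1.07). Tbx3 went from 245 to 35 (-2.54, interval -3.10 to -2.03), the most negative of the 9, and from 211 to 109 (-1.11). Esrrb differed least between introns and exons, with -1.41 against -1.11 and -0.64 against -0.53. Klf2 went from 187 to 89 (-0.80, interval -1.19 to -0.43) and from 46 to 46 (-0.16, interval -0.78 to 0.46), so in the files with single positions it was not clearly lower. Zfp42 was not lower there, with 2381 and 2777 intronic positions in the files with single positions (0.06, interval -0.02 to 0.14) and 3128 and 1308 in the other (-0.99). The median intronic ratio of the 9 factors was -1.25 and -0.79 in the files with repeated and single positions, and that of all genes compared was -0.12 and -0.06.

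**Figure D3:**
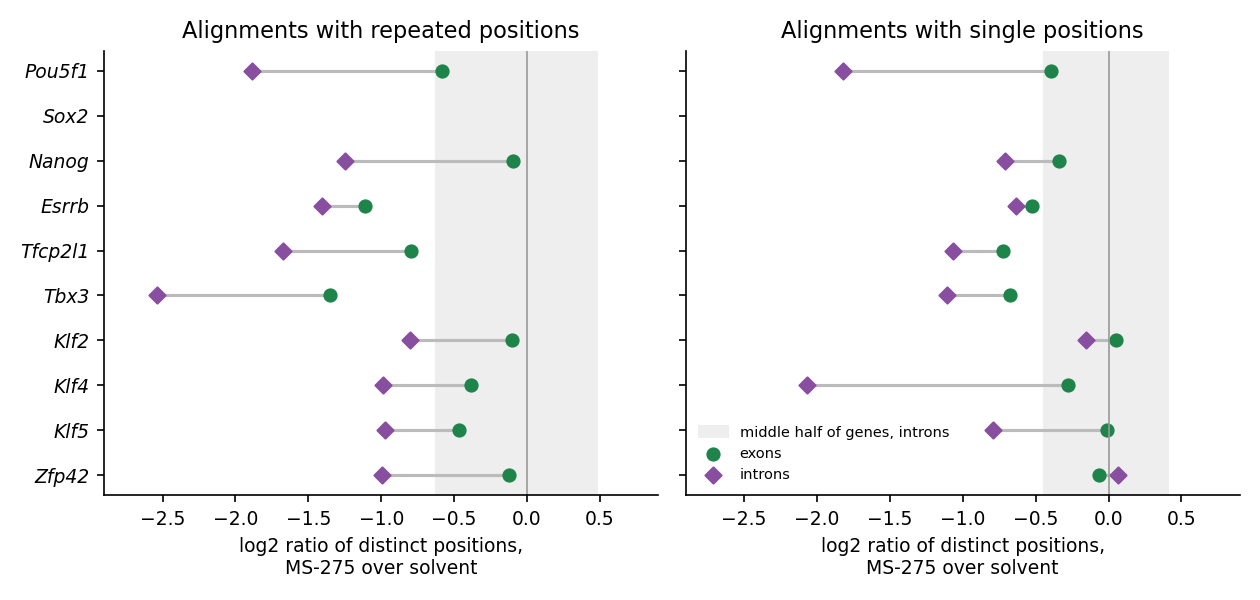
Log2 ratio of distinct alignment positions, MS-275 over solvent, on the exons (circles) and within the introns (diamonds) of each factor, in the files with repeated (left) and single (right) positions. The grey band spans the quartiles of the intronic ratios of all genes compared. Sox2 has no intron. All 9 diamonds on the left and 7 of 9 on the right lie below the band.

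Along the exons the ratio was uneven. Nanog exons are numbered over all annotated transcripts, and its first exon of 28 bases held 3 alignments in solvent and none in MS-275. Its second exon (chr6:122657583-122657951) stood at 95.2% of solvent and its last at 89.5% in the files with repeated positions. Exons 3 and 4 between them stood at 42.2% and 43.5%, but at 77.1% and 81.7% with each position counted once. In the files with single positions the same 4 exons stood at 78.9%, 95.3%, 69.2% and 74.6%, in another order. The first exon with at least 1% of a gene's alignments often had a higher ratio than the internal exons in the files with repeated positions. The difference was above 0 for 86.5% of 5471 genes, with a median of 0.63 on the log2 scale, and was 1.17 for Nanog (0.46 with each position counted once). For Pou5f1 it was -0.13, so its first exon was at least as low as its internal exons together.

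The first and second exons of Tfcp2l1 stood at 89.6% and 84.7% of solvent in the files with repeated positions, and the next 13 between 13.5% and 37.2%. In the files with single positions its 15 exons stood between 44.8% and 87.6%, with no such step. With each position counted once in the files with repeated positions, the first exon stood at 58.3% and the second at 67.9%, exons 3 to 13 between 13.4% and 56.1%, exon 14 at 65.6% and exon 15, the last, at 58.6%.

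**Figure D4:**
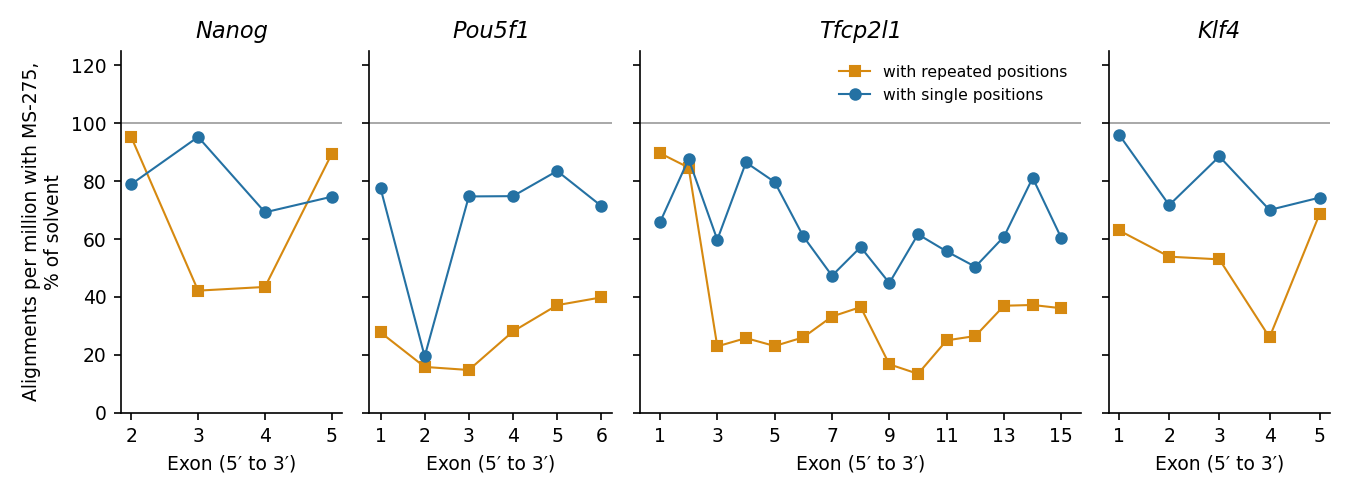
Alignments with MS-275 as a percentage of solvent, each divided by the total of its file, for each exon of Nanog, Pou5f1, Tfcp2l1 and Klf4 in 5′ to 3′ order, from the files with repeated (squares) and single (circles) positions. Exons with under 10 alignments in either solvent file are left out. Within Nanog the squares of exons 3 and 4 lie lowest and within Tfcp2l1 those from exon 3 on, while all squares of Pou5f1 lie between 14.8% and 39.8%.

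Esrrb alignments began downstream of its annotated starts. The exons at both RefSeq starts (chr12:87702067-87702488 and chr12:87762594-87762918) held from 0 to 8 alignments per file, while the exon at chr12:87811067-87811505 held 1030 with solvent and 187 with MS-275 in the files with repeated positions and 290 and 225 in those with single positions. The last exon of 2808 bases held 9799 and 1890, and 2590 and 2069.

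The network is known for binding its own promoters, so the 250 bases before the RefSeq start of each factor were searched on both strands for the binding letters of the families concerned. RefSeq windows (build GRCm38.p6, placed on mm9 by exact match) were found for 8 of the 10 factors, with a second window for Nanog, Esrrb and Pou5f1, and not for Klf5 and Tbx3. The octamer core ATGCAAA, a binding site of POU factors, was found in the windows of Sox2, Nanog (both) and Zfp42, 4 of 11, and in 4.12% of 32851 mouse windows of the same length. It was added to the search after the windows had been read, so these shares cannot test whether it is frequent in them. The Nanog windows overlap and hold the same site, which is counted in both. The first window of Nanog and of Pou5f1 and those of Zfp42, Sox2 and Tfcp2l1 are shown, because they hold these letters or belong to factors called lower. The windows of Esrrb are not, since the exons after them held almost no alignments. They run 5′ to 3′ on the strand of the gene and end at the base before the start, and capitals mark the matches of the letters searched, with only the core of an octamer in capitals:
Nanog (chr6:122657257-122657506, plus strand): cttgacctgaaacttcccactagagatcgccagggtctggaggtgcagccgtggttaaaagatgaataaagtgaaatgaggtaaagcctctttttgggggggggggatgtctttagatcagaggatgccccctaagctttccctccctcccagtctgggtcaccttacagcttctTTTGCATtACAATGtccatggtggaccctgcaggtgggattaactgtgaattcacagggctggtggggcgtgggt
Zfp42 (chr8:44392364-44392613, minus strand): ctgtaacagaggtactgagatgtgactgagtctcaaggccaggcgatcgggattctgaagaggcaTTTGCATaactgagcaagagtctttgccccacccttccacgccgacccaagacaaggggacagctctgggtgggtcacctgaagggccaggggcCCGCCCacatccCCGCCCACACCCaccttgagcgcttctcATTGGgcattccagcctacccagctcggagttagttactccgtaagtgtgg
Sox2 (chr3:34548667-34548916, plus strand): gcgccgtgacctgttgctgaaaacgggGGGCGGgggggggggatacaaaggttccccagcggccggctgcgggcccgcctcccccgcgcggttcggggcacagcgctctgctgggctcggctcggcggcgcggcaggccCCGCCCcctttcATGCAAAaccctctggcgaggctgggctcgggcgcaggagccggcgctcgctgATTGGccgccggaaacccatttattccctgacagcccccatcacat
Pou5f1 (chr17:35642727-35642976, plus strand): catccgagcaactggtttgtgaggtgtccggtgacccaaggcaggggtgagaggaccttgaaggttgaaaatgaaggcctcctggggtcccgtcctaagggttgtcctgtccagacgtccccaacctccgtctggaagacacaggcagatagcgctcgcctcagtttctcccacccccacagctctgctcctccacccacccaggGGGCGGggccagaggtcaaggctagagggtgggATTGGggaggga
Tfcp2l1 (chr1:120524272-120524521, plus strand): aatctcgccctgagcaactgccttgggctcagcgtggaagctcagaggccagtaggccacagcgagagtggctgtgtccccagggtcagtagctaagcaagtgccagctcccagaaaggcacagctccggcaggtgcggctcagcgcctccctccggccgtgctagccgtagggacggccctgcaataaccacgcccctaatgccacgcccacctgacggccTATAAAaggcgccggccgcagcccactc

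In the Nanog window the reverse of the octamer core, TTTGCAT, lies next to the reverse of the Sox letters, ACAATG, with 1 base between them. The octamer begins 75 bases and the Sox letters 67 bases before this start, and 151 and 143 bases before the start of the second exon, where most of the 5′ alignments lie. CATTGT, the Sox letters, was found in 3 of 11 windows of the factors and in 10.7% of all windows. Here too the same Nanog site is counted in both Nanog windows. The Zfp42 window holds the core at 185 bases before the start, preceded by the A that completes the octamer ATGCAAAT (1.60% of all windows). It also holds the Klf letters GGGTGTGG (3.20% of all windows) in reverse at 75 bases, where they overlap a GC box. In the Sox2 window the core lies forward at 99 bases. The Pou5f1 window holds a GC box (GGGCGG) at 45 bases and the CCAAT letters in reverse at 12 bases, found in 32.7% and 33.8% of all windows.

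Among the 8 factors with a window, Tfcp2l1 was the only one with TATAAA, at 28 bases before the start, which 12.4% of all windows hold. The Esrrb letters TCAAGGTCA and the Stat letters TTCCNGGAA were found in none of the 11 windows. These matches describe letters in a window and not binding. Nanog, Sox2 and Zfp42, whose windows hold the octamer core, had log2 fold changes of the values of -0.23, -0.30 and -0.49. The other 5 factors with windows had -1.02 (Tfcp2l1), -1.34 (Esrrb), -0.95 (Pou5f1), -0.44 (Klf4) and -0.28 (Klf2), a range that overlaps that of the first 3. The windows ranged from 45.6% GC for the second of Pou5f1 to 74.0% for Klf4, against a median of 52.4%.

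The partners and targets of the factors were read from lists for comparison. None of their genes passed limma's test without a block, so the counts here are with the block, where 6.46% of all genes were lower and 21.0% higher. After median-ratio scaling these shares were 14.1% and 16.6%. Of 22 network partners, 9 were lower and 0 higher (16 and 0 after median-ratio scaling), with a median log2 fold change of -0.53. Prdm14, which holds DNA methylation and FGF signals down in naive cells, was at 0.260 and 0.0840 with solvent and at 0.0392 and 0.00713 with MS-275 (log2 fold change -2.73, adjusted p = 4.80e-06 from limma with the block and 0.0991 without it). Sall1 followed with -2.67, and Gbx2 (0.47) and Ctnnb1, β-catenin (0.37), were the highest and did not pass. All 22 partners therefore lay between -2.73 and 0.47, a range that reached below that of the factors.

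Of 13 direct targets of the factors, 6 were lower and 1 was higher, with a median of -0.80. Gdf3, a TGF-β family ligand, was at 0.387 and 0.565 with solvent and at 0.0375 and 0.00782 with MS-275 (log2 fold change -4.34, adjusted p = 1.71e-06 from limma with the block and 0.0581 without it). Lefty2, an inhibitor of Nodal, had a log2 fold change of -3.20. Dppa3 (Stella), a maternal factor, was higher, at 0.0162 and 0.0234 with solvent and 0.0731 and 0.413 with MS-275 (2.88, adjusted p = 3.73e-05 from limma with the block). Trp53inp1 (0.47) did not pass.

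Of 26 tested relatives from the POU, Sox, Klf, T-box and other families of the factors, 4 were lower and 8 higher, with a median of -0.08 (8 and 7 after median-ratio scaling, median -0.36). Klf17, the relative of the Krüppel-like factors, was at 0.0154 and 0.00577 with solvent and at 0.0938 and 0.0930 with MS-275 (log2 fold change 2.73, adjusted p = 1.91e-05 from limma with the block). Esrrg, the relative of Esrrb, was at 0.00233 and 0.00104 with solvent and at 0.0464 and 0.0168 with MS-275 (2.33). Both stayed below the value of the naive factor of their family in each library. Sox1 and Klf12 were lower, at -1.16 and -1.15. Of 16 corepressor and chromatin partners, 2 were lower (Ncor1 at -0.82 and Kdm4c at -0.78) and 1 was higher (Hdac1 at 0.75), and Hdac2 (0.32) did not pass. After median-ratio scaling 8 of the 16 were lower and Hdac1 no longer passed (adjusted p = 0.147 from limma with the block).

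**Figure D5:**
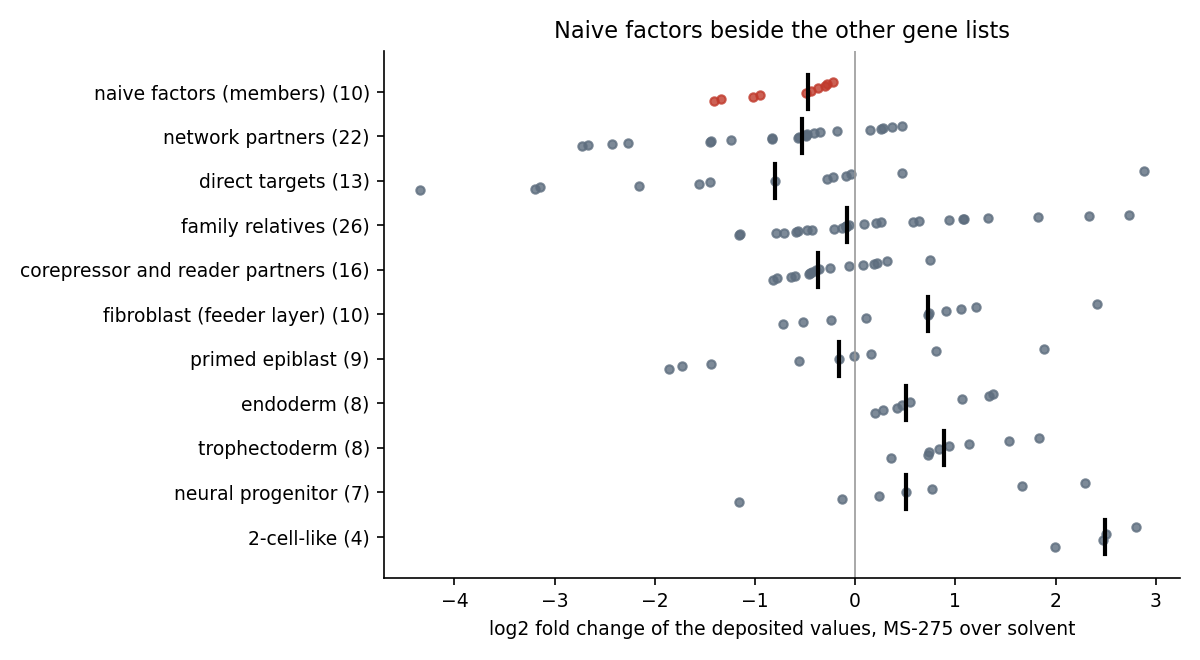
Log2 fold change (MS-275 over solvent) of the deposited values for each tested gene (points) of the 10 naive factors and of 10 other lists, with the number of genes in parentheses and the median as a black bar. The median is -0.47 for the naive factors, -0.80 for direct targets and 2.49 for the 2-cell-like genes.

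Markers of other states were read in the same way, with the block. Of 9 primed epiblast markers, 3 were lower and 2 higher (median -0.16), with Foxd3 (-1.86) and Zic2 (-1.73) lowest and Dnmt3b (0.81) and T (1.89) highest. After median-ratio scaling 4 were lower and 1 higher, and Dnmt3b no longer passed (adjusted p = 0.0793 from limma). Of 8 trophectoderm markers, 5 were higher and 0 lower (median 0.89), with Krt18 (1.84) and Elf5 (1.53) highest and Eomes (0.73) and Hand1 (0.36) lowest, the last 2 not passing. Of 8 endoderm markers, 3 were higher and 0 lower (median 0.50), with Afp (1.37) and Sox17 (1.33) highest and Gata6 (0.27) and Sox7 (0.19) lowest, the last 2 not passing. Hand1, Gata6 and Sox7 were negative after quantile normalization (-0.01, -0.16 and -0.24).

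Of 7 neural progenitor markers, 3 were higher and 1 lower (median 0.50). Nes (2.29) and Fabp7 (1.66) were highest, Sox1 (-1.16) was lower, and Pax6 (-0.14) did not pass. Of 10 fibroblast markers, 5 were higher and 0 lower (median 0.73), with Col1a1 (2.41) and Pdgfrb (1.20) highest and Dcn (-0.72) and Col3a1 (-0.52) lowest. After median-ratio scaling 4 were higher and 1, Dcn, was lower (adjusted p = 0.0220 from limma). All 4 tested 2-cell-like genes were higher (median 2.49), from Zscan4c at 2.00 and Zfp352 at 2.47 to Zscan4d at 2.51 and Usp17lb at 2.80. The summed value of the 8 endoderm markers was 0.138 and 0.0417 with solvent and 0.258 and 0.0868 with MS-275. That of the 8 trophectoderm markers was 0.109 and 0.0787 with solvent and 0.304 and 0.249 with MS-275. The lowest value of any of the 10 naive factors in any library was 0.194, of Tbx3.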

How the data were processed

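Poly(A) RNA of 4 libraries was sequenced by the authors, mapped to mm9 and turned into a normalized expression signal per gene with Genomatix. As deposited by the authors, these signal values are not counts, and neither the formula nor the treatment of repeated reads is given in the sources used here. The 2 deposited ratio tables and 4 shorter tables repeat the values or hold the authors' own comparisons and were not used. Genes at 0.001 or more in at least 2 libraries (20336 of 28250) were fitted as log2(value + 0.005) with limma 3.58.1 (lmFit, eBayes with a trend) in R 4.3.3, and p was adjusted by Benjamini-Hochberg over all of them. The replicate number was used as a block in an alternative fit: replicate 1 carries the word old in the authors' headers for solvent and MS-275 alike, and libraries with the same number deviated together (r = 0.764 over the 20336 genes). The deposited alignments of replicate 1 are, in contrast, named new.

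Alignments were assigned by their middle base to exons and introns of GENCODE M1 on mm9 without regard to strand, leaving out exon bases shared by several genes. Distinct positions (start and strand counted once) were tested with limma-voom for the 16994 genes that held 10 or more in 2 or more libraries, after trimmed-mean scaling (30% of ratios, 5% of levels). Steps ran in Python 3.11.15 with numpy 2.4.6, pandas 2.3.3, scipy 1.17.1 and matplotlib 3.10.9. For the 10 factors the standard errors without a block ran from 0.40 (Klf4) to 1.22 (Sox2). With the block they ran from 0.23 (Klf4) to 0.38 (Sox2). The absence of calls without a block therefore does not show that any factor was unchanged.

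The members and lists were chosen with earlier results of these data known. The genes named from a list are the 2 with the most negative and the 2 with the most positive log2 fold change without a block. Of the members, 9 matched by symbol and 1 by Entrez identifier. The deposited controls are labelled with a vehicle other than the one the methods name, so the text says solvent.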

Additional observations from a re-analysis of the deposited data

How the results depend on the processing

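Without a replicate block 0 factors passed as lower and 1 gene of the whole table passed as higher and 0 as lower. The replicate block gave 4 factors, and 4277 genes higher and 1314 lower. With the block, median-ratio scaling gave 6 factors (3379 and 2864 genes), quantile normalization 4 (2936 and 2961), a pseudocount of 0.001 gave 3 (4216 and 1220) and one of 0.02 gave 3 (3790 and 1158), both without Pou5f1. The block with no filter gave 0 factors and 0 genes in either direction. Distinct alignment positions gave 4 factors without the block (2100 and 1305 genes) and 6 with it (4076 and 3434). Without a block, a mean value of at least 0.01 gave 466 genes higher and 65 lower, and eBayes without a trend, both pseudocounts, no filter, median-ratio scaling and quantile normalization gave 0 higher. Leaving out 1 library gave 0 to 160 genes higher and 0 to 29 lower. Lower in both pairs by at least 1.5-fold were 2 factors, Tbx3 and Tfcp2l1, and by at least 2-fold after median-ratio scaling 1, Tbx3. The shares of all genes under these rules were not computed, so the counts have no background.

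Leaving out 1 library turned the sign of 5 factors, and the rest stayed negative. The range was -1.22 to 0.77 for Nanog, -1.20 to 0.61 for Sox2, -1.42 to 0.86 for Klf2, -1.49 to 0.50 for Zfp42 (these 4 positive where MS-275 replicate 1 or solvent replicate 2 was left out) and -0.86 to 0.11 for Klf5 (positive without MS-275 replicate 2). Such fits leave the replicates unbalanced and the lone library is assumed to vary like the others. For Pou5f1 the range was -1.79 (without solvent replicate 1) to -0.11 (without solvent replicate 2). With 2 libraries per group, the spread between replicates limits every comparison, while each factor rests on at least 395 distinct positions per library.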
